A study of Homo sapiens with 4 samples.

Results

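PML and 7 genes whose proteins build, modify or dismantle PML nuclear bodies were followed in RCC4 cells after knockdown of PML. The 8 genes were chosen by name from the 59050 genes of the count data: PML, the body partners SP100, DAXX and ATRX, the SUMO genes SUMO2 and SUMO3, the kinase gene HIPK2 and the ubiquitin ligase gene RNF4. All 8 were found, and all 8 passed the filter on low counts, as did 16516 genes in all. RCC4 is an established line of clear-cell renal cell carcinoma (ccRCC) cells that lack functional VHL. Both groups carried a doxycycline-inducible hairpin vector and both received doxycycline (100 ng/ml, 96 h). The shPML group expressed a hairpin against PML (shPML#1) and the shCtrl group a control hairpin. Each group had 2 libraries, 1 from each of 2 experiments with its own lentiviral infection, and experiment is used below for the replicate number. The cells were pools selected for the vector rather than clones, a single PML hairpin was sequenced, and gene-level counts do not separate the PML isoforms. In such bulk RNA, fewer cells expressing a gene and less RNA per cell cannot be told apart.

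PML nuclear bodies are spherical structures of the nucleus with a shell of PML protein around an inner core of client proteins. PML is modified with SUMO, a small ubiquitin-like protein, and also binds SUMO without a covalent bond, so that client proteins that carry or bind SUMO gather in the bodies. SUMO2 and SUMO3 can form chains, and chains on PML are read by RNF4, which adds ubiquitin and sends PML to the proteasome. The bodies are known for their roles in the interferon response, in p53 regulation and senescence, and in loading histone variant H3.3 onto heterochromatin.

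SUMO2 and SUMO3 encode almost the same mature protein, so their RNA sequences decide whether reads can be told apart. Their coding sequences have 285 and 309 bases, and 231 of 282 aligned bases were identical (81.9%). The longest run of identical bases was 24, well under the read length of 100 nt. The stretches below show 120 aligned bases of each, read 5′ to 3′ from the coding strand, with the 24 differing bases in capitals. They are bases 49 to 168 of the SUMO2 coding sequence, which starts and ends within chr17:75168342-75182834, and bases 46 to 165 of the SUMO3 coding sequence within chr21:44806954-44817968 (GRCh38, minus strand for both).
SUMO2: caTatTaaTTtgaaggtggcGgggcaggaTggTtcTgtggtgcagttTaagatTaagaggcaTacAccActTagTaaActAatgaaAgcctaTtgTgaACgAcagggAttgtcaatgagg
SUMO3: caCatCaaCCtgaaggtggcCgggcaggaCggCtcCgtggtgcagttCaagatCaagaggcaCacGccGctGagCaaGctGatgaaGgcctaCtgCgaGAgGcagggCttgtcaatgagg
No 100-base window of the canonical SUMO3 transcript occurred in a transcript of another gene. For SUMO2 3.75% of the windows did, in the processed pseudogenes SUMO2P1, SUMO2P17 and SUMO2P21. The counts list 22 SUMO pseudogenes, of which 10 held a read, with 52 reads in all 4 libraries and the most in SUMO2P17 (21 reads). PML, SP100, ATRX and HIPK2 also had 0 shared windows, while 14.0% of the DAXX windows and 7.05% of the RNF4 windows occurred in another annotated gene, so the counts of SUMO2, DAXX and RNF4 are less certain in those stretches.

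The libraries held 27781193 to 69870617 counted reads, of which 23181 to 57629 fell on the 8 genes. Markers of renal carcinoma lines (PAX8, CA9, VEGFA, NDUFA4L2, VIM, KRT8 and KRT18) were present in every library. The library labelled shPML replicate 2 also held reads of leukocyte genes that were nearly lacking elsewhere. LYZ, a lysozyme of myeloid cells, had 4 and 1 reads in shCtrl, 3 in shPML replicate 1 and 2349 in shPML replicate 2. CD14, a monocyte receptor, had 2, 4, 3 and 1177 reads, and PTPRC, the leukocyte surface phosphatase CD45, had 0, 0, 7 and 346 reads in the same order. The 5 leukocyte markers summed to 0.222 and 0.222 CPM in shCtrl and to 0.321 and 141 CPM in shPML. This sum rested on 3 of the 5 genes, as the T cell gene CD3E was at 0 in all libraries and the B cell gene CD79A had 3 to 10 reads. Endothelial markers were low, with PECAM1 at 0, 0, 3 and 113 reads, and the fibroblast genes DCN and LUM were at 0 throughout. In a further list of 16 myeloid genes, chosen after the data were seen, SPI1 had 0, 9, 0 and 391 reads and CD163 had 1, 3, 0 and 638, whereas LCP1 and CD74 were abundant in every library. Because of LCP1 the sum of that list was 925 to 1184 CPM in shCtrl and 636 to 826 CPM in shPML. The part of these reads in the results below was not tested, and values from experiment 1, or without shPML replicate 2, are given beside the results for each gene. Fits that left out a library had no block. Those without shPML replicate 2 set shPML replicate 1 against both shCtrl libraries, so they also hold the difference between the experiments. Over the lists described further on, the median log2 ratio in experiment 1 was -0.035 for SUMO conjugation, -0.01 for the SUMO proteases, -0.06 for PML turnover, 0.34 for the relatives of SP100, 0.07 for H3.3 deposition, -0.13 for the body clients and 0.22 for interferon signalling.

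**Figure D1:**
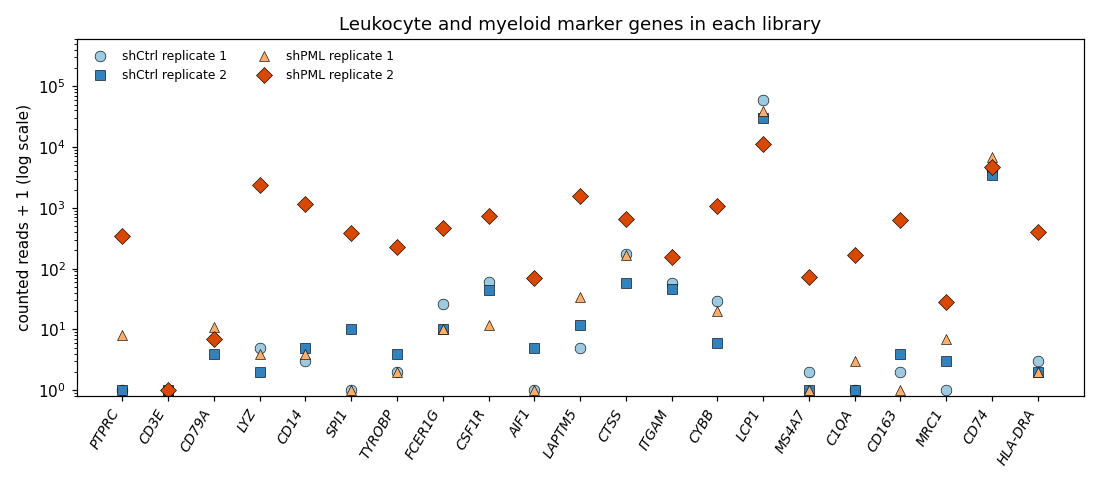
Counted reads plus 1, on a log axis, of the 5 leukocyte markers and 16 myeloid genes, with 1 symbol for each library. The shPML replicate 2 symbols stand far above the others for most genes, for example at 2349 reads of LYZ against 1 to 4, while CD3E is at 0 and LCP1 and CD74 are high in all libraries.

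Levels are given as CPM, reads of a gene relative to the TMM-adjusted size of its library. Between genes they were compared as CPM per kb of exon length. The deposited length exceeds that of the canonical transcript by unlike amounts. It is 8719 against 5565 bases for PML, 5399 against 2921 for RNF4 and 15622 against 15329 for HIPK2. The order of the genes thus depends on the length used. In shCtrl the order was SUMO3 (53.9 ± 11.6 CPM per kb, SD, n = 2), DAXX (47.7 ± 3.06), SUMO2 (29.0 ± 4.46), RNF4 (16.6 ± 0.464), HIPK2 (15.5 ± 0.0714), PML (13.1 ± 3.47), SP100 (11.4 ± 1.71) and ATRX (6.64 ± 0.629). The shCtrl libraries of 3 neighbouring pairs overlapped, namely SUMO3 with DAXX, HIPK2 with PML, and PML with SP100. In shPML DAXX stood above SUMO3 (47.7 ± 3.04 against 31.0 ± 4.79 CPM per kb, SD, n = 2). The mean of SP100 (14.8 ± 2.59) stood above those of HIPK2 (11.9 ± 2.47) and PML (8.17 ± 2.66). The shPML libraries of SP100 and HIPK2 overlapped, as in experiment 2 SP100 was at 13.0 and HIPK2 at 13.6 CPM per kb. ATRX had the lowest mean in shPML, at 7.40 ± 0.699 CPM per kb, but its libraries overlapped with those of PML, which was at 6.29 CPM per kb in experiment 1 where ATRX was at 7.89.

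PML and SUMO3 RNA was lower in shPML in both experiments, with log2 fold changes of -0.70 and -0.79 in a fit with the experiment as a block. SP100 was at 0.37, HIPK2 at -0.40 and SUMO2 at -0.35 in that fit, and DAXX, ATRX and RNF4 were at 0.00, 0.16 and 0.11. In the fit without a block 0 of the 8 genes were called lower and 0 higher, where a call needed an adjusted p below 0.05 together with a log2 fold change past 0.5 (edgeR's quasi-likelihood test, Benjamini-Hochberg adjustment). That fit called 0.333% of all genes tested lower and 0.0787% higher, 0.412% in either direction. At an unadjusted p under 0.05, 1 of the 8 genes, SUMO3, was lower, beside 1669 of the 16516 genes tested. DESeq2 without a block also called SUMO3 lower and no other of the 8, beside 894 of all genes called lower. When the experiment entered as a block, PML and SUMO3 were called lower and 0 genes higher, in edgeR and in DESeq2, where edgeR called 10.5% of all genes lower and 8.57% higher, 19.1% in all. The 2 shPML libraries lay below the 2 shCtrl libraries for 4 of the 8 genes and above them for 1, against 24.9% and 23.1% of all genes tested (48.0% in either direction). The median log2 fold change of the 8 genes was -0.18 without the block, beside 0.01 for all genes tested.

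**Figure D2:**
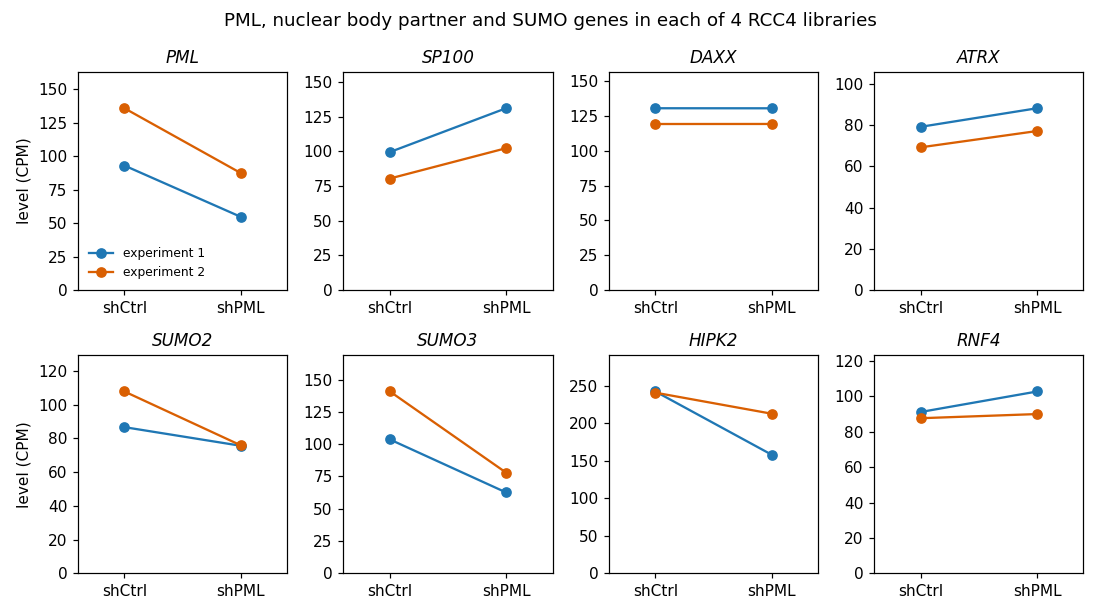
Level in CPM (from 0) of each of the 8 genes in shCtrl and shPML, with 1 line for each experiment. PML and SUMO3 drop in both experiments, to between 55.4% and 64.4% of shCtrl, SP100 is higher in both, and the DAXX lines are flat.

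PML, the targeted gene and the scaffold of the bodies, lies at chr15:73994673-74047812 (GRCh38, plus strand). Its level was 93.1 and 136 CPM in shCtrl experiments 1 and 2 and 54.9 and 87.6 CPM in shPML. Both shPML libraries were below both shCtrl libraries, and shPML kept 58.9% of the shCtrl level in experiment 1 and 64.4% in experiment 2. The log2 ratio was -0.76 in experiment 1 (95% counting interval -0.82 to -0.70) and -0.63 in experiment 2 (-0.71 to -0.56), where the intervals cover counting error only. Between the experiments PML differed by a factor of 1.46 in shCtrl, and shPML of experiment 2 came close to shCtrl of experiment 1. The log2 fold change was -0.69 without the block (SE 0.30, adjusted p = 0.32 in edgeR) and -0.70 with it (95% interval -0.92 to -0.48, adjusted p = 4.2e-07). Without the block and without shPML replicate 2 it was -1.05, and without shPML replicate 1 or shCtrl replicate 2 it was -0.39. These values also hold the difference between the experiments. AC013486.1, which overlaps PML on the opposite strand, had 1 read in all libraries together.

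SUMO3, which encodes a chain-forming SUMO protein, lies at chr21:44805617-44818129 (minus strand). It measured 104 and 141 CPM in shCtrl and 62.7 and 78.0 CPM in shPML. The groups did not overlap, and shPML held 60.5% of the shCtrl level in experiment 1 and 55.4% in experiment 2. The log2 ratios were -0.73 (95% counting interval -0.78 to -0.67) and -0.85 (-0.93 to -0.78). In the fit without the block its log2 fold change was -0.80 (SE 0.22, adjusted p = 0.157 in edgeR), and it was -0.79 with the block (95% interval -1.0045 to -0.57, adjusted p = 2.1e-08). It was -0.95 without shPML replicate 2. Of all genes tested, 9.99% had a lower log2 fold change than SUMO3 in the fit with the block.

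SUMO2, the paralog of SUMO3, lies at chr17:75165586-75182959 (minus strand). It measured 86.6 and 108 CPM in shCtrl and 75.6 and 75.9 CPM in shPML, so both shPML libraries lay below shCtrl and nearly at the same level. The log2 ratio was -0.20 in experiment 1 (95% counting interval -0.25 to -0.14) and -0.51 in experiment 2 (-0.58 to -0.43). SUMO2 was not called in either fit. Its log2 fold change was -0.36 without the block (SE 0.17, adjusted p = 0.36 in edgeR), and with the block it was -0.35 (95% interval -0.57 to -0.13, adjusted p = 0.0117), short of the fold change threshold of 0.5. Without shPML replicate 2 it was -0.35. In both experiments the counting interval of SUMO2 lay above that of SUMO3, and the difference between the paralogs was not tested across experiments.

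SP100, a permanent resident of the bodies that binds chromatin proteins and restrains viral genomes, lies at chr2:230415942-230545606 (plus strand). It measured 99.5 and 80.4 CPM in shCtrl and 131 and 102 CPM in shPML, with both shPML libraries above both shCtrl libraries. The log2 ratios were 0.40 (95% counting interval 0.35 to 0.45) and 0.35 (0.27 to 0.42). SP100 had a log2 fold change of 0.38 without the block (SE 0.20, adjusted p = 0.417 in edgeR) and 0.37 with it (95% interval 0.16 to 0.58, adjusted p = 0.0046), short of the fold change threshold in both fits. Without shPML replicate 2 it was 0.55. HMGB1P3, which overlaps SP100 on the same strand, had 0 to 19 reads a library.

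DAXX, the H3.3 chaperone that SUMO-modified PML draws into the bodies, lies at chr6:33318558-33323016 (minus strand). Its level was 130 and 119 CPM in shCtrl and 130 and 119 CPM in shPML, so the groups overlapped fully. The log2 ratio was 0.00 in both experiments, with 95% counting intervals from -0.05 to 0.04 and from -0.07 to 0.07. DAXX had a log2 fold change of 0.00 in both fits, with a 95% interval of -0.38 to 0.38 without the block and -0.21 to 0.21 with it. SMIM40, which overlaps DAXX on the same strand, had 0 reads. ATRX, the chromatin remodeler that works with DAXX, lies at chrX:77504878-77786216 (minus strand). It measured 79.2 and 69.2 CPM in shCtrl and 88.1 and 77.1 CPM in shPML, with overlapping groups. The log2 ratio was 0.16 in each experiment, with 95% counting intervals from 0.10 to 0.21 and from 0.07 to 0.24. The log2 fold change of ATRX was 0.16 in both fits (with the block 95% interval -0.07 to 0.38, adjusted p = 0.32 in edgeR), and it was not called. Without shPML replicate 2 it was 0.26 for ATRX and 0.07 for DAXX.

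HIPK2, a kinase that phosphorylates p53 and is itself a client of the bodies, lies at chr7:139561570-139777998 (minus strand). It measured 243 and 241 CPM in shCtrl and 158 and 213 CPM in shPML. Both shPML libraries were below shCtrl, and the gap was larger in experiment 1. The log2 ratio was -0.62 in experiment 1 (95% counting interval -0.65 to -0.58) and -0.18 in experiment 2 (-0.23 to -0.13). HIPK2 had a log2 fold change of -0.38 without the block (SE 0.19, adjusted p = 0.39 in edgeR) and -0.40 with it (95% interval -0.60 to -0.19, adjusted p = 0.0017), and it was not called in either fit. It was -0.60 without shPML replicate 2 and -0.18 without shPML replicate 1.

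RNF4, the ligase that recognizes SUMO chains on PML, lies at chr4:2469068-2515857 (plus strand). It measured 91.2 and 87.7 CPM in shCtrl and 103 and 90.0 CPM in shPML, and the groups overlapped. The log2 ratios were 0.17 (95% counting interval 0.12 to 0.22) and 0.04 (-0.04 to 0.11). The log2 fold change was 0.11 in both fits (with the block 95% interval -0.11 to 0.32, adjusted p = 0.51 in edgeR), and without shPML replicate 2 it was 0.21.

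**Figure D3:**
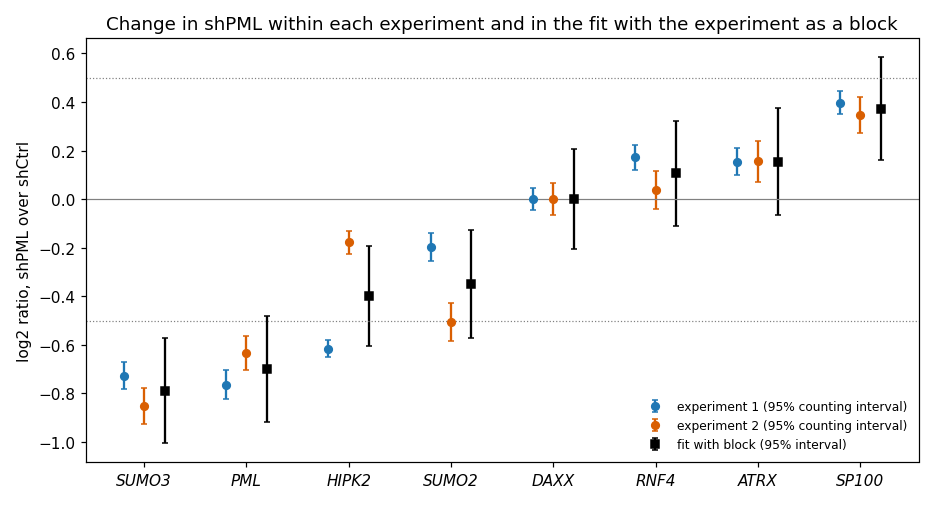
Log2 ratio of shPML over shCtrl for the 8 genes in experiment 1 and experiment 2, with 95% counting intervals, and the log2 fold change of the fit with the experiment as a block, with its 95% interval. Dotted lines mark the fold change threshold of 0.5. SUMO3 (-0.79) and PML (-0.70) lie at the left and SP100 (0.37) at the right, and the 2 experiments differ most for HIPK2 (-0.62 and -0.18).

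The wider pathways were described with 7 lists holding 88 genes, of which 87 passed the filter on low counts. Without a block 1 of them was called lower and 0 higher, and the blocked fit called 11 lower and 5 higher. Each share is to be read beside the 10.5% and 8.57% of all genes called in that fit.

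Of the 16 genes for SUMO conjugation, 0 were called without the block and 1 with it, and their median log2 fold change was -0.07. PIAS2, a SUMO ligase, was lower with a log2 fold change of -0.50 with the block, at the edge of the threshold (adjusted p = 0.0056 in edgeR), and DESeq2 with the block did not call it. In experiment 1 its log2 ratio was -0.45. Of the 9 SUMO proteases, 0 were called in either fit, and the median log2 fold change was 0.00. Without the block, the log2 fold changes in these lists ran from -0.51 for PIAS2 to 0.37 for SENP5. SUMO2 and SUMO3, which are described above, are not part of these lists, and SUMO3 lay below this range.

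Of 15 genes that act in PML turnover, 0 were called without the block, while 1 was called higher and 1 lower with it. KLHL20, an adaptor that brings PML to the CUL3 ubiquitin ligase, measured 13.5 and 13.7 CPM in shCtrl and 25.2 and 21.9 CPM in shPML. The groups did not overlap, and the log2 fold change was 0.79 with the block (adjusted p = 4.6e-06 in edgeR) and 0.90 in experiment 1. UHRF1, a ubiquitin ligase that also reads hemimethylated DNA during replication, measured 77.8 and 127 CPM in shCtrl and 46.7 and 79.7 CPM in shPML. It was lower within each experiment, by log2 ratios of -0.74 and -0.67, although the groups overlapped across experiments (adjusted p = 5.2e-07 with the block in edgeR). Its log2 fold change of -0.70 without the block was -1.12 without shPML replicate 2, a value that also holds the difference between the experiments.

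The 3 relatives of SP100, which lie beside it on chromosome 2, had positive log2 ratios in both experiments (median log2 fold change 0.36), as did 6111 of the 16516 genes tested. With the block 1 of the 3 was called higher, and 0 without it. SP140, a chromatin reader best known from immune cells, measured 16.5 and 9.67 CPM in shCtrl and 37.7 and 24.8 CPM in shPML. The 2 shPML libraries were above both shCtrl libraries, and SP140 rose by log2 ratios of 1.19 and 1.36. It was called higher with the block (log2 fold change 1.27, adjusted p = 1.2e-11 in edgeR) and not without it (adjusted p = 0.152). Without the block and without shPML replicate 2 its log2 fold change was 1.53, beside the log2 ratio of 1.19 in experiment 1. SP110 had log2 ratios of 0.34 and 0.39 and was not called in either fit (adjusted p = 0.0151 in the blocked fit, where the change was under 0.5). SP140L had log2 ratios of 0.26 and 0.23 and was not called, and the groups overlapped for SP110 and SP140L. Leukocytes are known to express the SP100 family, and the part of the leukocyte reads in these values was not tested.

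SP100, SP110, SP140 and SP140L had entries in the table of RefSeq promoters (GRCh38.p14), with 2 starts each for SP100 and SP110. Printed are a window of SP100, that of SP140, which was the family member called, and the window of SP110 that held a motif. The windows run from 250 bases before the start to 50 after it. They were searched on both strands for the interferon-stimulated response element ISRE, taken as 2 GAAA boxes with any 2 bases between them, and for the STAT site GAS, spelled TTCNNNGAA. The SP100 window lies at chr2:230415951-230416250, that of SP140 at chr2:230225486-230225785 and that of SP110 at chr2:230219935-230220234, with SP110 on the minus strand and capitals marking the GAS match.
SP100: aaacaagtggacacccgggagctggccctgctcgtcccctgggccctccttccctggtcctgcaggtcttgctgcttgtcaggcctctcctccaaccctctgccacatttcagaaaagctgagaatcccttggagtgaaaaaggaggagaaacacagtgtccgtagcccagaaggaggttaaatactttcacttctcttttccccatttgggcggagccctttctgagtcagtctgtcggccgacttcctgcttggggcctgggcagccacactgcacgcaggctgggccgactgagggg
SP140: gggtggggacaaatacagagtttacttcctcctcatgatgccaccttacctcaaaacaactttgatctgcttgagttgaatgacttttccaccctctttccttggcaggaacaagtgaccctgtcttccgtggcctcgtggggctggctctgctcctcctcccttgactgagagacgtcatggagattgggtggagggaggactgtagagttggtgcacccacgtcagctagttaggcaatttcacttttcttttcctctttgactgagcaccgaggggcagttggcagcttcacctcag
SP110: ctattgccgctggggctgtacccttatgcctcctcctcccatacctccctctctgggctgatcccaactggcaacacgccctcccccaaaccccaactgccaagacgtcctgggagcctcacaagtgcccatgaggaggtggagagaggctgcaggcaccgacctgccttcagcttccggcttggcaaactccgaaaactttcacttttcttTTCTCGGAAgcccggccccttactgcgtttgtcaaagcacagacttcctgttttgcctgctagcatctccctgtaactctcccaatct
The GAS letters in SP110 ran from base -38 to base -30 before its start and were the only match of either motif in the windows of SP100, SP110, SP140, SP140L, SUMO2, SUMO3 and RNF4. Only these exact spellings were searched, so elements with another spacing or a changed base were missed. The search thus does not show that a window lacks such an element. Of 35116 promoters of this length, 3.57% held the ISRE letters and 7.66% the GAS letters. The other start of SP110 and that of SP140 point away from each other, and their windows overlap. PML, DAXX, ATRX and HIPK2 had no entry in the table.

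Of 10 genes for H3.3 and its deposition, 1 was called lower without the block and 2 with it. ASF1B, a chaperone that hands H3-H4 dimers to other chaperones in dividing cells, fell from 86.0 and 82.9 CPM in shCtrl to 32.9 and 30.7 CPM in shPML. Its log2 fold change was -1.41 (SE 0.15, adjusted p = 0.0484 without the block in edgeR), and its log2 ratios were -1.38 and -1.43. It was not called without the block under RLE normalization, nor when any 1 library was left out, and without shPML replicate 2 its value was -1.35. ASF1A, its paralog, was called lower with the block (log2 fold change -0.62, adjusted p = 0.00013 in edgeR). Its log2 ratio was -0.37 in experiment 1, under the threshold of 0.5, and -0.88 in experiment 2, whose shPML library held the leukocyte reads. H3-3B, the H3.3 gene with most reads, had a log2 fold change of -0.01 and a log2 ratio of 0.09 in experiment 1. H3-3A had a log2 fold change of 0.10, and 0.14 in experiment 1, at 5.67 to 7.83 CPM, and its counts are uncertain because 64.3% of its 100-base windows occurred in other genes.

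Of 19 tested genes for proteins that visit the bodies, 0 were called without the block and 7 were lower with it, while 0 were higher. HIPK3, a relative of HIPK2, measured 46.7 and 52.3 CPM in shCtrl and 15.5 and 23.1 CPM in shPML (log2 fold change with the block -1.39, adjusted p = 9.5e-14 in edgeR). RB1, the retinoblastoma gene, measured 66.3 and 74.7 CPM in shCtrl and 28.4 and 38.4 CPM in shPML (log2 fold change with the block -1.09, adjusted p = 3.6e-11 in edgeR). All 4 genes of the complex that dissolves joined DNA molecules after recombination were lower with the block. BLM, its helicase, changed by -1.54 on the log2 scale, RMI1 by -1.19, RMI2 by -0.74 and the topoisomerase gene TOP3A by -0.52. The remaining called gene was MRE11, a nuclease of DNA repair, at -0.58. TOP3A and MRE11 were named after their values were seen, since the rule for named genes took 5 a list. For these 7 genes, which were picked by their calls in the same data, the groups did not overlap. Of the 19 genes, 9 had both shPML libraries below both shCtrl libraries and 5 had them above. The shares of all genes tested were 24.9% and 23.1%. In experiment 1 alone the log2 ratios were -1.59 for HIPK3, -1.22 for RB1, -1.29 for BLM, -0.995 for RMI1, -0.85 for RMI2, -0.54 for TOP3A and -0.497 for MRE11. Proliferation markers moved with these genes, as 12 of 12 were lower in both experiments (median log2 fold change -1.01), against 6124 of the 16516 genes tested. The summed level of the markers was 2091 to 2262 CPM in shCtrl and 1154 to 1266 CPM in shPML. The part of proliferation in the lower values of these 7 genes, and of ASF1B and UHRF1 above, was not tested.

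Of 15 genes of interferon signalling, 0 were called without the block, and 3 were higher and 0 lower with it, and the median log2 fold change was 0.28. JAK1, the kinase of interferon receptors, measured 377 and 361 CPM in shCtrl and 568 and 515 CPM in shPML (log2 fold change with the block 0.55, adjusted p = 3.4e-06 in edgeR). IRF7, an inducer of type I interferon genes, measured 8.09 and 12.6 CPM in shCtrl and 14.3 and 35.2 CPM in shPML (log2 fold change with the block 1.15, adjusted p = 4.9e-09 in edgeR). For JAK1 and IRF7, picked by their calls in the same data, both shPML libraries were above both shCtrl libraries. This held for 9 of the 15 genes, and 1 had both below, against 23.1% and 24.9% of all genes tested. IRF7 was highest in the library with leukocyte reads, and its log2 fold change of 1.25 without the block was 0.48 without that library, with a log2 ratio of 0.82 in experiment 1. The value of 0.48 also holds the difference between the experiments in shCtrl (8.09 and 12.6 CPM). For JAK1 the value without that library was 0.63. JAK1 shares 102 exon bases with RF00019 on the same strand, which had 152 to 388 reads a library.

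**Figure D4:**
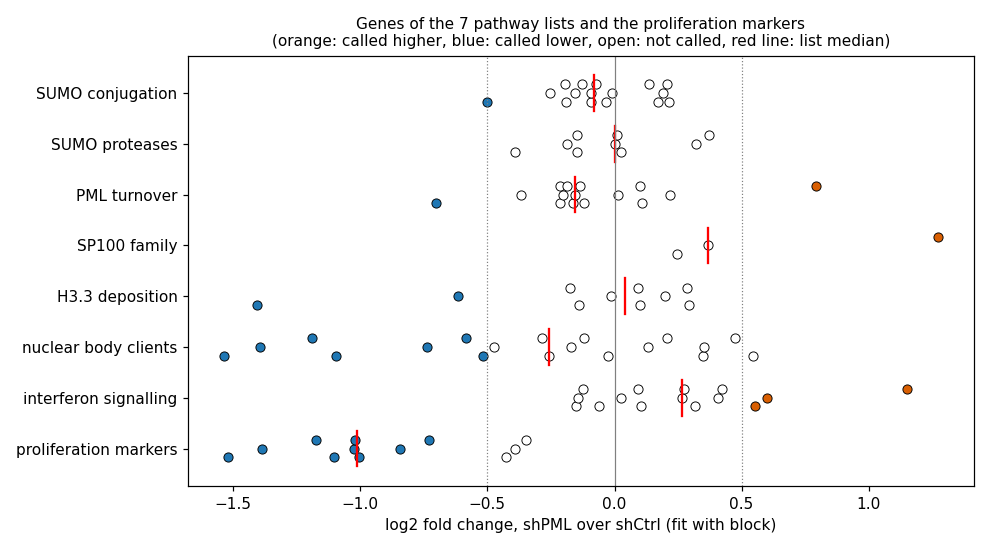
Log2 fold change of shPML over shCtrl, from the fit with the experiment as a block, for each tested gene of the 7 pathway lists and of the proliferation markers. Orange genes were called higher, blue genes lower and open genes neither. The red line marks the list median, and dotted lines the threshold of 0.5. The SUMO lists crowd around 0, the 7 lower clients lie between -1.54 and -0.52, and SP140 (1.27) and IRF7 (1.15) lie farthest to the right.

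The 5 genes whose levels followed PML most closely were sought among 9597 genes with a mean of at least 10 CPM, by the root mean square distance of log2 levels, each centred on its mean, over the 4 libraries. They were NAF1 (distance 0.02), an assembly factor of small nucleolar RNA complexes, FPGS (0.03), an enzyme of folate metabolism, CSK (0.03), a kinase that restrains SRC, SPIN4 (0.03) and PQLC1 (0.04). NAF1 measured 10.6 and 16.0 CPM in shCtrl and 6.25 and 10.0 CPM in shPML. CSK measured 50.4 and 76.8 CPM in shCtrl and 29.5 and 46.7 CPM in shPML. With 4 libraries and 9597 genes compared, close matches are a description, and the profile of PML combines a difference between the groups with 1 between the experiments.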

How the data were processed

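RNA was measured in 2 shPML and 2 shCtrl libraries. The authors trimmed single-end reads of stranded mRNA libraries with Trimmomatic 0.39, aligned them to GRCh38 with STAR and counted them on Gencode genes with featureCounts 1.6.4. The release, the strand setting and the handling of reads with several matches were not given in the sources used here. The deposited values are raw counts with no normalization, and the exon length of each gene as deposited gave CPM per kb. The record notes that labels of 2 samples were exchanged and later corrected, and the current labels were used. Columns without a number were taken as replicate 1, since the other column of each group is numbered 2. Of 36713 gene names shared with Gencode v44, 99.98% overlapped on the same strand, the 8 genes included.

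The counts were fitted in R 4.3.3 using edgeR 4.0.16 (filterByExpr, TMM, quasi-likelihood test, Benjamini-Hochberg adjustment over 16516 genes) and DESeq2 1.42.0, and figures were drawn in Python 3.11.15 with matplotlib 3.10.9. The fits were also run on simulated counts with known changes, at a dispersion near that of the fit with the block. That check required only that the median changes were recovered, and it set no limit on false calls. Calls required an adjusted p below 0.05 and a log2 fold change past 0.5. The study describes 2 experiments with separate infections, and replicate numbers were read as these experiments. Deviations of the replicate 1 libraries from their group means correlated at 0.546 over the genes tested, and genes are not independent replicates. Adding the block lowered the common dispersion from 0.0813 to 0.0137. Ratios within an experiment have exact (Clopper-Pearson) 95% intervals that cover counting error only.

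The 8 genes and all lists were chosen with earlier results of these data known. Named are all 8 genes; from each list the genes called without the block and up to 5 called with it by smallest adjusted p; SP110, H3-3A and H3-3B whatever their values; the SUMO pseudogene with most reads; genes overlapping the 8; and the 5 genes most like PML. Some genes within this rule are not reported here, and counts over lists include them. H3-3A and H3-3B are H3F3A and H3F3B in the counts. Promoters came from RefSeq (GRCh38.p14) and coding sequences from Gencode v44. SUMO attachment motifs in proteins were not analysed here. The alternatives were DESeq2, the block in both tools, RLE normalization, no filter, a minimum of 10 counts per library, a log2 fold change threshold of 1 or none, and each library left out. The values within each experiment were added after the data were seen.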

Additional observations from a re-analysis of the deposited data

How the results depend on the processing

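With the experiment as a replicate block in edgeR, the log2 fold change was -0.70 for PML and -0.79 for SUMO3, and both became calls. They were also calls in DESeq2 with the replicate block (-0.69 and -0.78) and in edgeR with no filter on low counts (-0.68 and -0.79), and SUMO3 was in DESeq2 without it (-0.78). The count of the 8 genes called lower was thus 2, 2, 2 and 1 in these fits, against 0. The block changed no other call among the 8 genes. Listed genes called lower numbered 11 with the block, 10 in DESeq2 with it, 6 in DESeq2, 6 with no filter and 0 under RLE normalization, against 1, and those called higher 5, 5, 4 and 3 in the first 4 of these fits, against 0. Of all genes, 55 lower became 1735 with the block, 1384 in DESeq2 with it, 894 in DESeq2, 946 with no filter, 144 with at least 10 counts in every library and 0 under RLE normalization, where the smallest adjusted p was 0.0501 (2967 genes at an unadjusted p below 0.05). The 13 higher became 1415, 1102, 578, 891, 53 and 0. With 1 library left out the lower calls ranged from 0 to 29 over all genes and from 0 to 0 over the lists, and the higher calls from 1 to 11. The lone library of a group was then assumed to vary like the others.

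Leaving out a library, in fits without the block, gave log2 fold changes from -1.05 to -0.39 for PML, -1.0017 to -0.56 for SUMO3, -0.51 to -0.19 for SUMO2, -0.60 to -0.18 for HIPK2, 0.18 to 0.55 for SP100, 0.06 to 0.26 for ATRX and 0.01 to 0.21 for RNF4. These ranges also hold the difference between the experiments. DAXX, at 0.00, ranged from -0.0665 to 0.0729 and was negative without shCtrl replicate 2 (-0.0646) and without shPML replicate 1 (-0.0665). Within experiments 1 and 2 the value moved to -0.20 and -0.51 for SUMO2 and to -0.62 and -0.18 for HIPK2. The causes were not tested. With 2 libraries a group, the p-values rest on a spread between libraries that is estimated partly from the other genes tested. With the block, it is the spread left after the difference between the experiments is taken out. In DESeq2 2242 genes, and 2882 with its block, received no adjusted p.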
